A study of Homo sapiens with 24 samples.

Results

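DHRS3, a short-chain dehydrogenase/reductase that turns retinal back into retinol, was described together with 8 other genes of the retinoic acid pathway in U251 cells, a human glioblastoma line. The members were STRA6, DHRS3, ALDH1A1, ALDH1A3, CRABP2, CYP26B1, RARA, RARB and RARG, and they were taken by gene symbol: every array probe whose RefSeq transcript belongs to one of the 9 genes was kept. This gave 16 probes among the 58118 of the array, which carries 24817 gene symbols. DHRS3 itself was selected on its lower signal after 72 h of treatment, so its 72 h values are given as a description, without a test.

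Retinoic acid is made inside cells from vitamin A and acts on gene transcription. The membrane receptor STRA6 takes up retinol, which is reversibly oxidized to retinal, and DHRS3 runs that step backwards, while aldehyde dehydrogenases such as ALDH1A1 and ALDH1A3 oxidize retinal irreversibly to retinoic acid. CRABP2 carries retinoic acid to the nuclear receptors RARA, RARB and RARG, which bind DNA with a retinoid X receptor, and the CYP26 enzymes degrade it. Several genes of the pathway, among them DHRS3, STRA6, CYP26B1 and RARB, are known targets of these receptors.

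The cells were kept for 24 h in medium with charcoal-stripped serum, which deprives them of steroid hormones, before all treatments. They then received G-1, an agonist of the G protein-coupled estrogen receptor GPER, at its IC50 or at 1 µM, or the vehicle DMSO (0.1% per the labels), for 24 h or 72 h. The study's methods give a lower concentration of DMSO than the labels do. Each of the 6 groups held 4 arrays, labelled as independent biological replicates of this 1 cell line, which makes 24 one-colour Agilent arrays. The labels' duration field goes against the sample titles for G-1 IC50 at 24 h and G-1 1 µM at 72 h, and the titles were used.

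Vehicle and G-1 IC50 hybridizations shared slides 1 and 2, whereas the 8 of G-1 1 µM filled slide 3 and were scanned on another day, so that slide and dose cannot be told apart in any comparison of G-1 1 µM with another group. The local background was 48 to 58 intensity units on slide 3 and 44 to 48 on the others, and 38.0% to 40.7% of the spots were well above background on slide 3 against 41.1% to 44.5%. Arrays of 1 group correlated at r = 0.990 to 0.996 over the tested probes. All 10 astroglial and glioma markers, including GFAP, VIM and SOX2, were well above background on the 24 arrays. The neuronal markers RBFOX3, SYT1 and SNAP25 were too, as was VWF on 23 arrays and CDH5 on 16, while PTPRC, AIF1, PECAM1, EPCAM, CDH1 and KRT5 were on none.

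Promoter sequence is shown for RARB, which holds the classical pair of receptor motifs, and for DHRS3 and STRA6, whose signals were both lower after G-1 at 72 h. RefSeq (GRCh38.p14) gave 20 windows for the 9 members, each running from 250 bases before a transcription start to 50 bases after it, and all are written 5′ to 3′ on the gene's own strand. The core motifs of the receptors, AGGTCA or AGTTCA or GGGTCA or GGTTCA, were searched on both strands and are set in capitals.

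RARB, chr3:25428013-25428312, plus strand: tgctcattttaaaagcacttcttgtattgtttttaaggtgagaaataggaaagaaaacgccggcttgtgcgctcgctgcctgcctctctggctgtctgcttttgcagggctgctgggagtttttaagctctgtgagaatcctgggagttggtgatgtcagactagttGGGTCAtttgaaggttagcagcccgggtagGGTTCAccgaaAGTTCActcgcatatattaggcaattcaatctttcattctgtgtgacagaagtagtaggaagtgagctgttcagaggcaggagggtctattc
DHRS3, chr1:12616740-12617039, minus strand: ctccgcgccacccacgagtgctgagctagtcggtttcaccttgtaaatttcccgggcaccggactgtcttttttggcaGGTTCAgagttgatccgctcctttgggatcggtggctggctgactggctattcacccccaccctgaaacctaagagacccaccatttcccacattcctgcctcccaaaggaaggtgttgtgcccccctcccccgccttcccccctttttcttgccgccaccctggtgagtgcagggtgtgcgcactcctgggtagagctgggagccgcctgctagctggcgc
STRA6, chr15:74212210-74212509, minus strand: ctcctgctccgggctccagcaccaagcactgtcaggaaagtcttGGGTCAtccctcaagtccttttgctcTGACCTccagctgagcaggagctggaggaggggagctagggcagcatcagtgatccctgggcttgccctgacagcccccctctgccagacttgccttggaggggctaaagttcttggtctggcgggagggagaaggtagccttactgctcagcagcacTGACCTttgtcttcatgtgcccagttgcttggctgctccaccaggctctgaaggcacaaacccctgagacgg

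A direct repeat was defined as 2 of these motifs in the same orientation with 1, 2 or 5 bases between them. It stood in 1 of the 20 windows, that of RARB, as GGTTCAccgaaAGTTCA, with a spacing of 5 and lying 53 to 37 bases before the start. Of all 35116 promoter windows, 0.259% held such a repeat, and 0.0883% held one with a spacing of 5. Single motifs were common, present in 38.6% of all windows. The 3 DHRS3 windows held 2 single motifs in all, 1 of them in the window printed here, and the 5 STRA6 windows held 4, 3 of them in the window printed. The DHRS3 window printed is not that of the start at the gene's 5′ end, chr1:12618161-12618460, which held no motif. The windows of RARG, CYP26B1, ALDH1A1 and ALDH1A3 held none. These matches describe letters within 300 bases around each start only.

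Signals are given as log2 values from which the array's own 75th percentile was subtracted, so that this percentile stands at 0. Tests were run on the 22970 probes that some group showed well above background in each of its 4 replicates. Of the 16 member probes 10 were tested, and they covered 7 of the 9 genes. The single probe of CYP26B1 and both probes of ALDH1A1 were not well above background on any of the 24 arrays, so a retinoic acid-degrading enzyme and a retinal dehydrogenase have no comparison here. Likewise, 2 of the 4 RARB probes were above background on no array and a second CRABP2 probe on 1 array. A gene with several tested probes is represented by the brightest, and the other is given beside it.

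DHRS3, on the minus strand of chromosome 1 (chr1:12567910-12618210, GRCh38.p14), was measured by 1 probe, bright on every array. In DMSO its log2 signal was 7.79, 7.39, 7.83 and 7.99 at 24 h in replicates 1 to 4. At 72 h in DMSO it was 8.04, 8.09, 7.88 and 8.09. The 2 vehicle groups overlapped and differed by 0.27 (SE 0.21). No test is given for this difference, since the 72 h vehicle arrays entered the selection of DHRS3. Between these vehicle times, 3.34% of the 14235 genes tested passed an adjusted p under 0.05.

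After 24 h of G-1 at the IC50, DHRS3 was at 7.50, 7.33, 6.80 and 7.14. After 24 h of G-1 at 1 µM it was at 7.61, 7.22, 6.59 and 7.20. Both groups overlapped the 24 h vehicle arrays, whose lowest was replicate 2, and each had its lowest array in replicate 3. The difference from DMSO was -0.56 at the IC50 (SE 0.21, 95% interval -0.99 to -0.13, limma adjusted p = 0.771), which did not pass the test. Across all genes, 0.218% were higher and 0.0281% lower in that comparison. Within slide 1, with 2 treated and 3 vehicle arrays, it was -0.81, and within slide 2, with 2 and 1, it was -0.07. At 1 µM the difference was -0.60 (SE 0.21, 95% interval -1.02 to -0.17, limma adjusted p = 0.0333), which passed. That call was lost, however, when any one of 5 arrays was left out, namely DMSO 24 h replicates 1, 3 and 4 and G-1 1 µM 24 h replicates 2 and 3, with the difference between -0.75 and -0.41 and the adjusted p between 0.0152 and 0.137 over the 8 arrays left out in turn. It was also lost with only the arrays of the comparison in the fit (adjusted p = 0.0771), with slide as a random block (0.0767) and with the methods' t-test after Benjamini-Hochberg adjustment (0.14). In the same comparison 20.0% of all genes were higher and 10.5% lower. The 2 doses differed in DHRS3 by -0.04 at 24 h (95% interval -0.46 to 0.39, limma adjusted p = 0.913), where 26.5% of all genes passed.

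After 72 h of G-1 at the IC50, the log2 signal of DHRS3 was 6.18, 6.04, 5.68 and 5.54. After 72 h at 1 µM it was 5.66, 5.52, 4.84 and 5.31. All 8 treated arrays lay below every DMSO array at 72 h, the nearest by more than the whole range of the vehicle arrays, and the 2 doses overlapped. The difference from DMSO was -2.17 (SE 0.21, n = 4 against 4), a 4.49-fold lower signal, at the IC50 and -2.69 (SE 0.21), a 6.46-fold lower signal, at 1 µM. These are the values DHRS3 was selected on and carry no test. At the IC50, the difference was -2.06 within slide 1 (1 treated and 2 vehicle arrays) and -2.16 within slide 2 (3 and 2). In those 72 h comparisons, 0.429% of all genes were higher and 0.478% lower at the IC50, and 35.2% were higher and 31.0% lower at 1 µM. RNA was taken from whole cultures, so fewer cells with a transcript and less of it per cell cannot be told apart.

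In the order of its 6 group means, DHRS3 ran from DMSO 72 h (8.02 ± 0.10, SD, n = 4) through DMSO 24 h (7.75 ± 0.25), G-1 IC50 24 h (7.19 ± 0.30), G-1 1 µM 24 h (7.15 ± 0.42) and G-1 IC50 72 h (5.86 ± 0.30) to G-1 1 µM 72 h (5.33 ± 0.36). Only between the fourth and the fifth group of this order did the ranges of neighbouring groups not overlap.

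**Figure D1:**
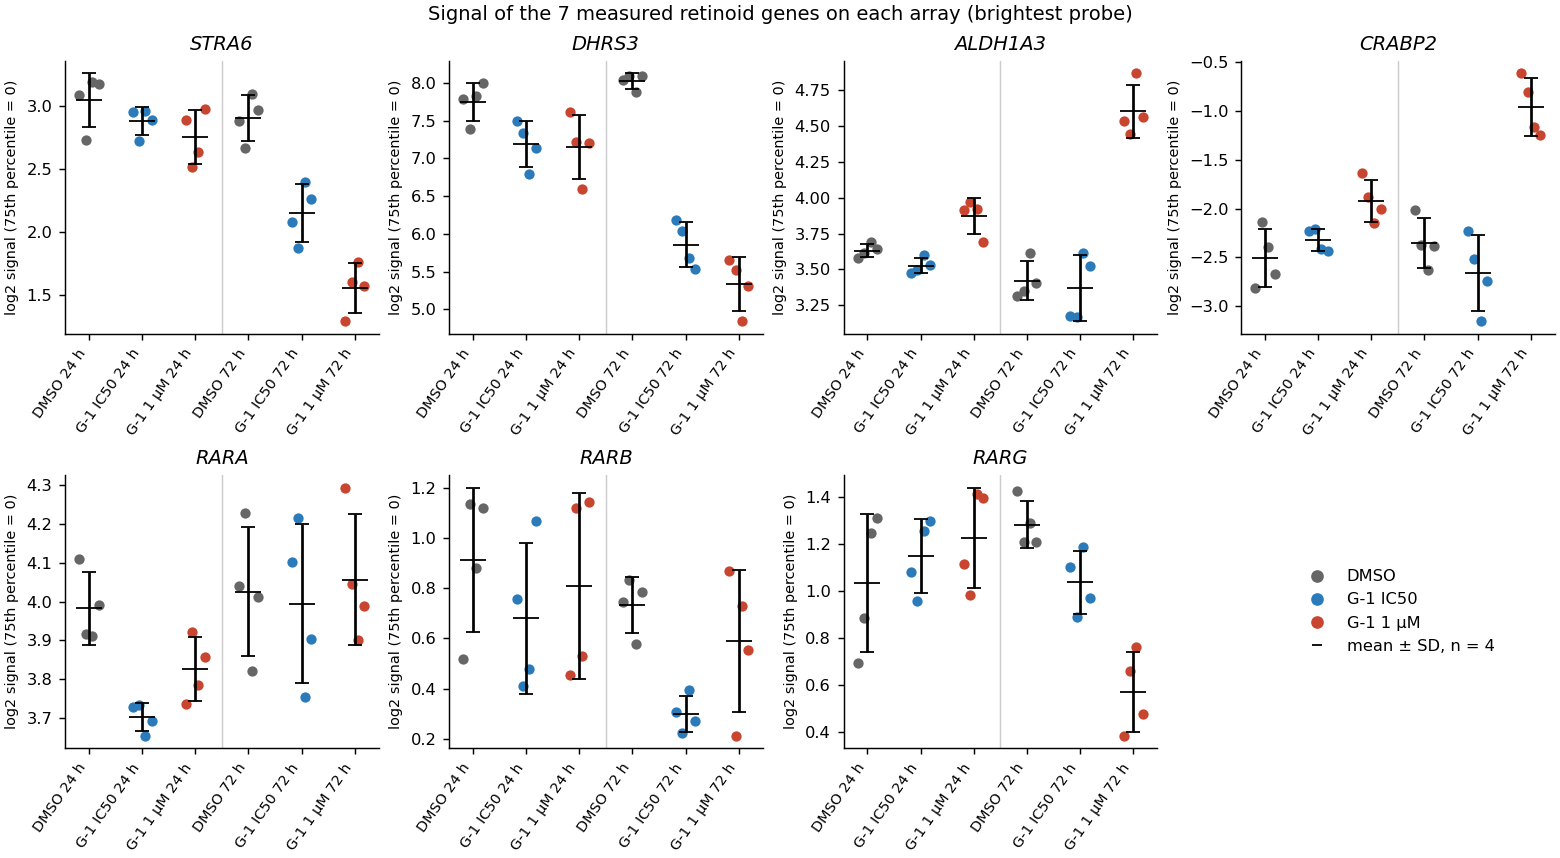
Log2 signal (75th percentile of the array = 0) of the 7 measured genes, brightest probe, in the 6 groups; each point is 1 array, the bars are the mean ± SD of 4 arrays, and each panel has its own vertical scale. DHRS3 and STRA6 were low after G-1 at 72 h at both doses, whereas CRABP2 and ALDH1A3 were high only with G-1 1 µM at 72 h among the 72 h groups.

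STRA6, the retinol uptake receptor (chr15:74179466-74212259, minus strand), fell at 72 h at both doses. Its log2 signal was 2.88, 2.67, 3.10 and 2.97 in DMSO at 72 h. It was 2.08, 1.87, 2.39 and 2.26 at the IC50 and 1.29, 1.60, 1.77 and 1.57 at 1 µM. The 3 groups did not overlap. The difference from DMSO was -0.75 at the IC50 (SE 0.13, limma adjusted p = 0.00528) and -1.34 at 1 µM (SE 0.13, adjusted p = 3.21e-08), a 2.54-fold lower signal. At the IC50 the call stayed when any 1 array was left out, with an adjusted p of 0.0047 to 0.0303, and the difference was -0.95 within slide 1 and -0.74 within slide 2. It did not hold with only the 8 arrays of the comparison in the fit (adjusted p = 0.0656) or with the methods' t-test after Benjamini-Hochberg adjustment (0.187). The doses themselves differed by -0.59 at 72 h (adjusted p = 0.000661).

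At 24 h STRA6 was not distinguished from DMSO, at -0.16 with the IC50 (limma adjusted p = 0.998) and -0.29 with 1 µM (adjusted p = 0.106). The 1 µM difference did pass when DMSO 24 h replicate 2 was left out (adjusted p = 0.0367). The 24 h arrays ran from 2.73 to 3.19 in DMSO, from 2.72 to 2.96 at the IC50 and from 2.51 to 2.97 at 1 µM. With 1 µM the 72 h difference exceeded the 24 h difference by -1.05 (interaction with duration, SE 0.19, adjusted p = 0.00027). A second, dim STRA6 probe was above background on 11 of the 24 arrays and gave -0.75 (SE 0.32, adjusted p = 0.479) at the IC50 and -0.55 (SE 0.32, adjusted p = 0.14) at 1 µM at 72 h. Its 1 µM difference passed only when G-1 1 µM 72 h replicate 1 was left out (adjusted p = 0.0197).

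ALDH1A3, which oxidizes retinal to retinoic acid (chr15:100879831-100916626, plus strand), rose with G-1 1 µM at 72 h. Its log2 signal was 3.31, 3.35, 3.61 and 3.41 in DMSO and 3.18, 3.16, 3.62 and 3.52 at the IC50. It was 4.54, 4.44, 4.87 and 4.57 at 1 µM. The IC50 arrays lay on both sides of the vehicle arrays, while the 1 µM arrays were all above both groups. The difference from DMSO was 1.18 at 1 µM (SE 0.10, limma adjusted p = 5.3e-09), a 2.27-fold higher signal, and -0.05 at the IC50 (95% interval -0.27 to 0.16, adjusted p = 0.93). The doses differed by 1.23 at 72 h (adjusted p = 3.55e-09). At 24 h the differences from DMSO were 0.24 at 1 µM (adjusted p = 0.0827) and -0.11 at the IC50 (adjusted p = 0.998). The former did pass when G-1 1 µM 24 h replicate 4 was left out (adjusted p = 0.0419). The doses differed at 24 h by 0.35 (adjusted p = 0.0175), a call lost without G-1 1 µM 24 h replicate 2 (adjusted p = 0.0528), with the 50th percentile as the reference (0.37) and with normexp background correction (0.179). The 1 µM difference was larger at 72 h than at 24 h by 0.94 (SE 0.15, interaction, adjusted p = 6.49e-05).

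CRABP2, the carrier that delivers retinoic acid to its receptors (chr1:156699606-156705784, minus strand), was dim in the vehicle and rose with G-1 1 µM. At 72 h its log2 signal was -2.01, -2.37, -2.63 and -2.38 in DMSO and -2.23, -2.52, -3.15 and -2.74 at the IC50, where 3 of the 4 arrays were well above background. It was -0.62, -0.81, -1.17 and -1.25 at 1 µM. All 4 of the 1 µM arrays lay above the other 72 h arrays. The difference from DMSO was 1.39 at 1 µM (SE 0.19, limma adjusted p = 1.86e-06), a 2.62-fold higher signal, and -0.31 at the IC50 (95% interval -0.70 to 0.08, adjusted p = 0.688). With normexp background correction the 1 µM difference was 0.57, with an adjusted p of 2.11e-07, so that its size depended on how background was handled, and the higher background of slide 3 moves with that group.

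At 24 h CRABP2 was at -2.82, -2.14, -2.39 and -2.67 in DMSO and at -1.64, -1.89, -2.15 and -2.01 at 1 µM, with an overlap of 1 vehicle array. The difference of 0.58 (SE 0.19, limma adjusted p = 0.0231) passed, but not without DMSO 24 h replicate 1 or 4 or G-1 1 µM 24 h replicate 1, where the adjusted p was 0.0628 to 0.0811, nor with the 50th percentile as the reference (0.0995), slide as a random block (0.0567) or the methods' t-test after Benjamini-Hochberg adjustment (0.0774). The IC50 gave 0.18 (adjusted p = 0.998). The 1 µM difference was larger at 72 h by 0.81 (SE 0.26, interaction, adjusted p = 0.0244), a call lost when any one of 4 arrays was left out, DMSO 24 h replicate 2, DMSO 72 h replicate 3, G-1 1 µM 24 h replicate 3 or G-1 1 µM 72 h replicate 1, with an adjusted p of up to 0.0606, and with the 50th percentile as the reference (0.0572) or no filter on dim probes (0.0785).

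Among the receptors, RARG (chr12:53210569-53232209, minus strand) fell with G-1 1 µM at 72 h. Its log2 signal was 1.42, 1.21, 1.29 and 1.21 in DMSO and 1.10, 0.89, 1.19 and 0.97 at the IC50. It was 0.38, 0.66, 0.76 and 0.47 at 1 µM. Neither treated group overlapped the vehicle, and the doses did not overlap each other. The difference from DMSO was -0.71 at 1 µM (SE 0.13, limma adjusted p = 7.67e-05) and -0.25 at the IC50 (95% interval -0.52 to 0.02, adjusted p = 0.622), and the doses differed by -0.47 (adjusted p = 0.00396). At 24 h the differences were 0.19 at 1 µM (adjusted p = 0.273) and 0.11 at the IC50 (adjusted p = 0.998), and the 1 µM difference changed between the times by -0.91 (SE 0.18, interaction, adjusted p = 0.000884).

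The 2 RARA probes disagreed. The brighter one gave 0.03 with 1 µM at 72 h (95% interval -0.17 to 0.24, limma adjusted p = 0.794), with arrays from 3.90 to 4.29 against 3.82 to 4.23 in DMSO. On the dimmer one the signal fell from 0.23, 0.24, 0.18 and 0.09 in DMSO to -0.66, -0.48, -0.73 and -0.66, a difference of -0.81 (SE 0.13, adjusted p = 1.19e-05), with no overlap and an interaction with duration of -0.59 (adjusted p = 0.016, and 0.0607 with no filter on dim probes). At the IC50 the probes gave -0.03 (adjusted p = 0.958) and -0.16 (adjusted p = 0.79) at 72 h. At 24 h the brighter probe ran from 3.91 to 4.11 in DMSO and from 3.65 to 3.73 at the IC50. These groups did not overlap, but the difference of -0.28 (SE 0.10, limma adjusted p = 0.722) did not pass, and the dimmer probe gave -0.12 (adjusted p = 0.998). With 1 µM at 24 h the probes gave -0.16 (adjusted p = 0.241) and -0.22 (adjusted p = 0.187). RARA (chr17:40309180-40357643, plus strand) therefore has no single direction here.

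RARB (chr3:24829321-25597932, plus strand) holds the repeat shown above in 1 of its 4 promoter windows. Which start the transcripts read by its probes come from was not tested. RARB was not called higher than DMSO at either dose or time on either tested probe, and its dimmer probe was called lower once. At 72 h its brighter probe was at 0.75, 0.83, 0.58 and 0.79 in DMSO, at 0.31, 0.22, 0.40 and 0.27 at the IC50 and at 0.87, 0.21, 0.73 and 0.56 at 1 µM. The IC50 arrays were all below the vehicle arrays and the 1 µM arrays overlapped both. The difference was -0.44 at the IC50 (SE 0.18, limma adjusted p = 0.434) and -0.14 at 1 µM (SE 0.18, adjusted p = 0.485). The dimmer probe gave -0.47 (SE 0.14, adjusted p = 0.197) and -0.41 (SE 0.14, adjusted p = 0.0168), so that it passed at 1 µM alone, and not without DMSO 72 h replicate 1 or G-1 1 µM 72 h replicate 3 (adjusted p up to 0.081), nor with the methods' t-test after Benjamini-Hochberg adjustment (0.0763). At 24 h the brighter probe gave -0.23 and -0.10 at the IC50 and 1 µM and the dimmer one -0.11 and -0.02, with adjusted p of 0.688 or more.

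**Figure D2:**
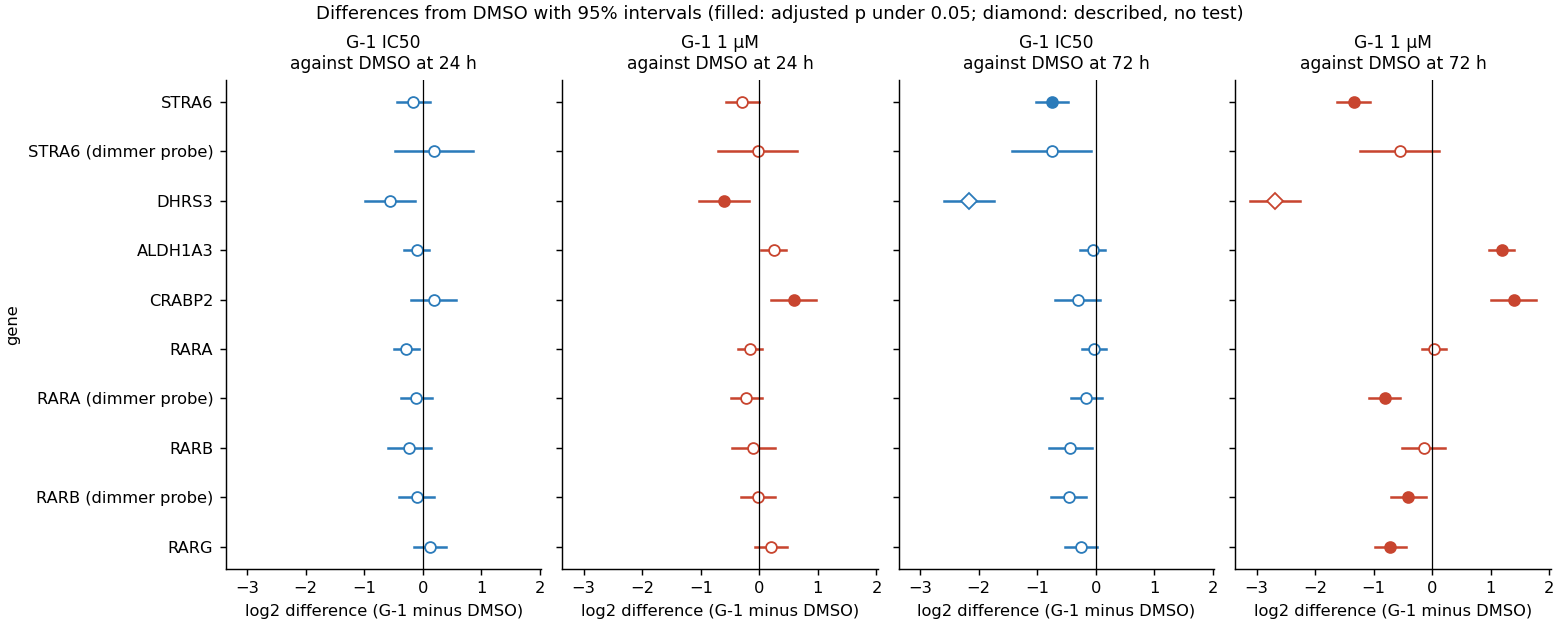
Log2 difference from DMSO of the 10 tested probes in the 4 comparisons, with 95% intervals from limma (4 arrays per group); filled symbols passed an adjusted p under 0.05, open circles did not, and diamonds mark the DHRS3 values at 72 h that carry no test. At 72 h the interval of the brighter STRA6 probe lies below 0 at both doses and that of the dimmer STRA6 probe spans 0 at 1 µM. Those of ALDH1A3 and CRABP2 lie above 0 at 1 µM and span 0 at the IC50. The position of the DHRS3 intervals at 72 h follows from the selection of DHRS3 on these values.

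Of the 6 measured members other than DHRS3, none passed in either direction with the IC50 at 24 h by limma. At an unadjusted p under 0.05 there was 1, where 661 of all 14235 genes were. With the IC50 at 72 h 1 passed, lower (STRA6), where 0.478% of all genes were lower. With 1 µM at 24 h 1 passed, higher (CRABP2), where 20.0% of all genes were higher and 10.5% lower, and with 1 µM at 72 h 2 were higher (ALDH1A3 and CRABP2) and 2 lower (STRA6 and RARG), of which ALDH1A3, CRABP2 and STRA6 also changed more than 2-fold. Across all genes, 12.3% passed with a change over 2-fold at 1 µM and 72 h and 1.69% at 1 µM and 24 h. Since 35.2% of all genes were higher and 31.0% lower at 1 µM and 72 h, 4 of 6 is a share near the background. The interaction of 1 µM with duration passed in 4 of 6, where 34.1% of all genes passed, and the dose difference at 72 h in 4 of 6, where 65.1% did. No member passed the interaction of the IC50 with duration, where 0.0140% of all genes did, or the comparison of the vehicle times (limma). At an unadjusted p under 0.05 there were 1 and 0 members, where 602 and 2741 of all 14235 genes were.

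Around these members, 74 genes of vitamin A metabolism and retinoic acid response, DHRS3 left out, were read from a list made with earlier results of these data known. Of them 47 were tested, and none of the 3 CYP26 genes was. With the IC50 none passed at 24 h by limma, with 8 at an unadjusted p under 0.05, where 661 of all 14235 genes were. At 72 h with the IC50, 1 rose and 4 fell, where 0.429% of all genes were higher and 0.478% lower. With 1 µM, 6 rose and 4 fell at 24 h, where 20.0% of all genes were higher and 10.5% lower, and 9 rose and 16 fell at 72 h, where 35.2% were higher and 31.0% lower. The share of the list that passed in either direction was below that of all genes at 1 µM at both times. The median difference of the 47 genes was -0.01, -0.11, -0.02 and -0.15 in the same order, beside -0.01, -0.02, 0.04 and 0.03 over all genes.

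The 5 genes of the list that passed at the IC50 and 72 h are named because they were few, after their values were seen. RDH10, which oxidizes retinol to retinal and so opposes DHRS3, rose by 0.66 (SE 0.14, limma adjusted p = 0.0278), from 4.20 ± 0.09 in DMSO to 4.86 ± 0.09 (SD, n = 4). That call was lost when any one of 7 of the 8 arrays was left out, with an adjusted p of up to 0.0999, and stayed without DMSO 72 h replicate 2 (0.0491). It was also lost with the 50th percentile as the reference (0.148) and with no filter on dim probes (0.102). With 1 µM RDH10 fell instead, by 0.54 on the log2 scale at 24 h (adjusted p = 0.00771) and by 0.69 at 72 h (adjusted p = 0.00027), and the 2 doses differed at 72 h by -1.36 (adjusted p = 7.99e-08).

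HOXB3 and HOXB4, homeobox genes of a cluster that responds to retinoic acid in development, fell at the IC50 and 72 h by 0.49 (adjusted p = 0.00189) and by 0.74 (adjusted p = 0.00216). At 1 µM and 72 h their differences were -0.02 (adjusted p = 0.836) and -0.18 (adjusted p = 0.191). Neither call was lost when 1 array was left out, but that of HOXB3 was with the 50th percentile as the reference (adjusted p = 0.198) and that of HOXB4 with normexp background correction, which gave -0.22 (adjusted p = 0.355). Neither passed the methods' t-test after Benjamini-Hochberg adjustment (0.097 and 0.132). PLAAT4, a retinoic acid-induced phospholipase and acyltransferase, differed by -0.56 (adjusted p = 0.0294), a call lost without any one of 7 of the 8 arrays, all but DMSO 72 h replicate 3, and also with slide as a block (adjusted p = 0.0702), the 50th percentile, normexp, no filter on dim probes, only the compared arrays or the methods' t-test after adjustment (0.0503 to 0.265). STRA6 was the fifth.

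With 1 µM at 72 h, 7 of the 47 tested genes of the list passed with a change over 2-fold, 3 higher and 4 lower. Of all 14235 genes 12.3% did, so this share is near the background. PLAAT4 fell from 5.97 ± 0.21 to 4.00 ± 0.12, a difference of -1.97 (SE 0.12, limma adjusted p = 4.3e-11). TGM2, a transglutaminase that retinoic acid induces in many cells, moved the other way, from -1.57 ± 0.26 to 0.93 ± 0.21, a difference of 2.49 (SE 0.17, adjusted p = 1.78e-10), and its second probe gave 2.51 (adjusted p = 6.78e-05). With normexp background correction the TGM2 difference was 1.54. CDX1, a homeobox gene, gave -1.02 (adjusted p = 0.000306), with 2 of its 4 arrays at 1 µM above background, and -0.20 with normexp background correction. ALDH8A1, a retinal dehydrogenase, was well above background on 3 of 4 vehicle arrays and on no 1 µM array. Its measured difference of -1.87 (SE 0.58, limma adjusted p = 0.00761) therefore rests on 1 µM values below background. With the dimmest probe above background on each array as the bound, its signal was at least 1.06-fold lower. That bound carries no test, and a change over 2-fold is not established for ALDH8A1. STRA6, ALDH1A3 and CRABP2 were the others.

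By role, at 1 µM and 72 h, where 35.2% of all genes were higher and 31.0% lower, 2 of 10 tested genes of retinol and retinal interconversion rose and 5 fell, among them RDH10 and AKR1C3, a reductase of retinal (-0.90, adjusted p = 7.87e-09), against DHRS9, a retinol dehydrogenase (0.65, adjusted p = 0.000866). Of the 3 tested genes of retinal oxidation, ALDH1A3 rose and CYP1B1 fell, and ALDH8A1 passed as lower on 1 µM values below background. Of the 6 receptors 2 fell, RARG and RXRA (-0.17, adjusted p = 0.0482). Of the 15 tested target genes 4 rose and 3 fell. Genes under a 2-fold change are named here by role after their values were seen. Known target genes stood in both directions, TGM2 and GPRC5A (0.92, adjusted p = 1.28e-05) higher and PLAAT4 and HOXA3 (-0.63, adjusted p = 0.00021) lower.

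**Figure D3:**
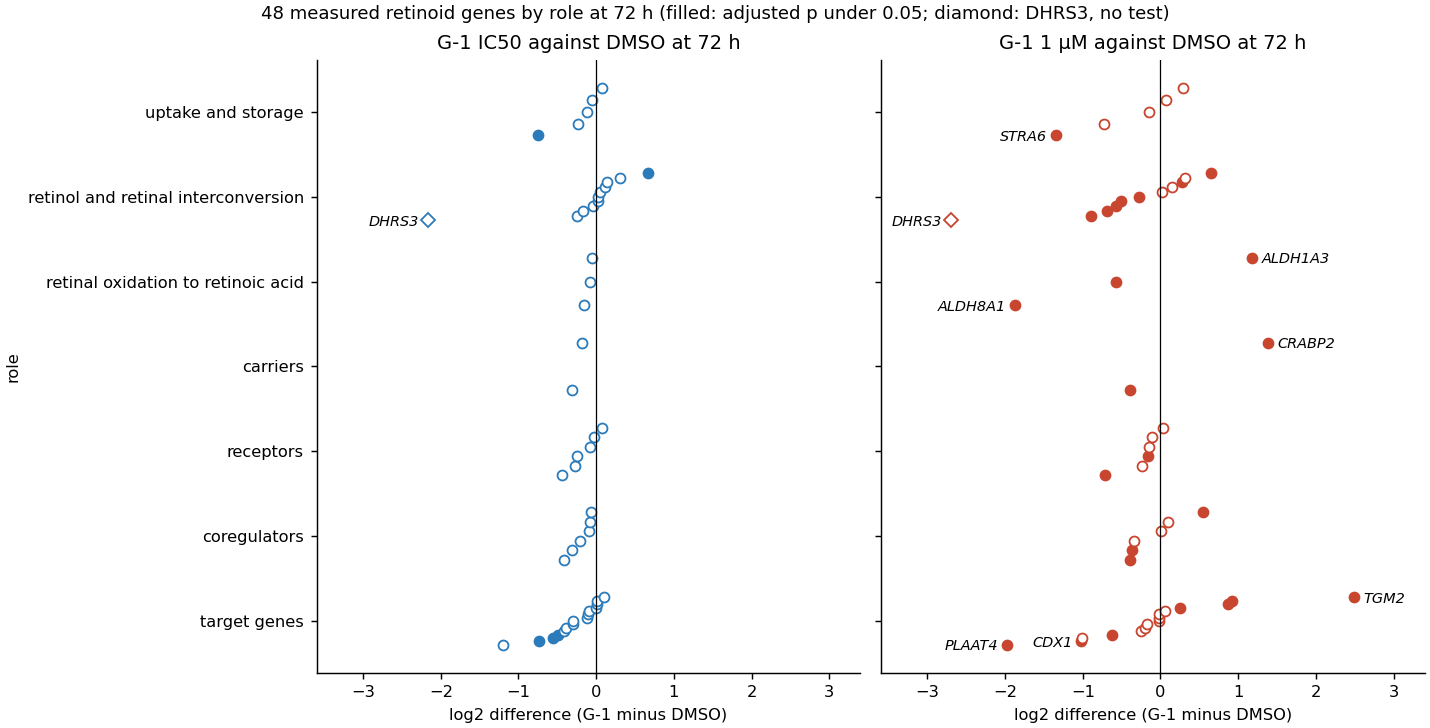
Log2 difference from DMSO at 72 h of the 48 tested genes of the retinoid list, DHRS3 included, one point per gene in its role; filled points passed an adjusted p under 0.05, the diamond is DHRS3 (no test), and names mark DHRS3 and the genes that passed with a change over 2-fold, ALDH8A1 being drawn at its measured difference although it was below background at 1 µM. The IC50 panel holds 5 filled points and the 1 µM panel 25, on both sides of 0.

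The genes whose signal most resembled that of DHRS3 were ranked by Pearson correlation with it over the 24 arrays, among 12707 other genes well above background on all of them. The arrays share the 6 groups and their slides, so these values describe a shared pattern across groups and carry no test. The ranking includes the 72 h arrays on which DHRS3 was selected. A low signal at 72 h of G-1 in the genes most like it therefore follows from the choice. The 10 highest were LOXL4 (r = 0.916), IGFBP6 (0.914), SYNPO (0.894), GABRE (0.886), VSTM2L (0.885), HEG1 (0.885), ZNF469 (0.883), COL18A1 (0.881), ERAP2 (0.879) and STRA6 (0.869), a member itself. LOXL4, a lysyl oxidase-like enzyme, had group means of 2.73 in DMSO, 2.19 at the IC50 and 1.69 at 1 µM at 72 h. IGFBP6, which binds insulin-like growth factors, had means of 4.66, 3.97 and 4.07. The 5 lowest were HAUS6 (r = -0.882), SCG5 (-0.869), ADAMTS4 (-0.858), SHC4 (-0.849) and PRSS12 (-0.84). Of the 10 genes named, 3 were among the 10 most similar when only the 16 vehicle and G-1 IC50 arrays were used, and 5 with Spearman's correlation. STRA6 was not among them, ranking 33 over the 16 arrays and 47.5 by Spearman's correlation.

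Among the members, RARG correlated with DHRS3 at 0.589, RARB at 0.46, RARA at -0.104 and ALDH1A3 at -0.588 over the 24 arrays. Over the 16 arrays without G-1 1 µM the values were 0.304, 0.68, 0.137 and 0.213, and that of STRA6 was 0.809. ALDH1A3 thus changed sign when the slide 3 arrays were left out.

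**Figure D4:**
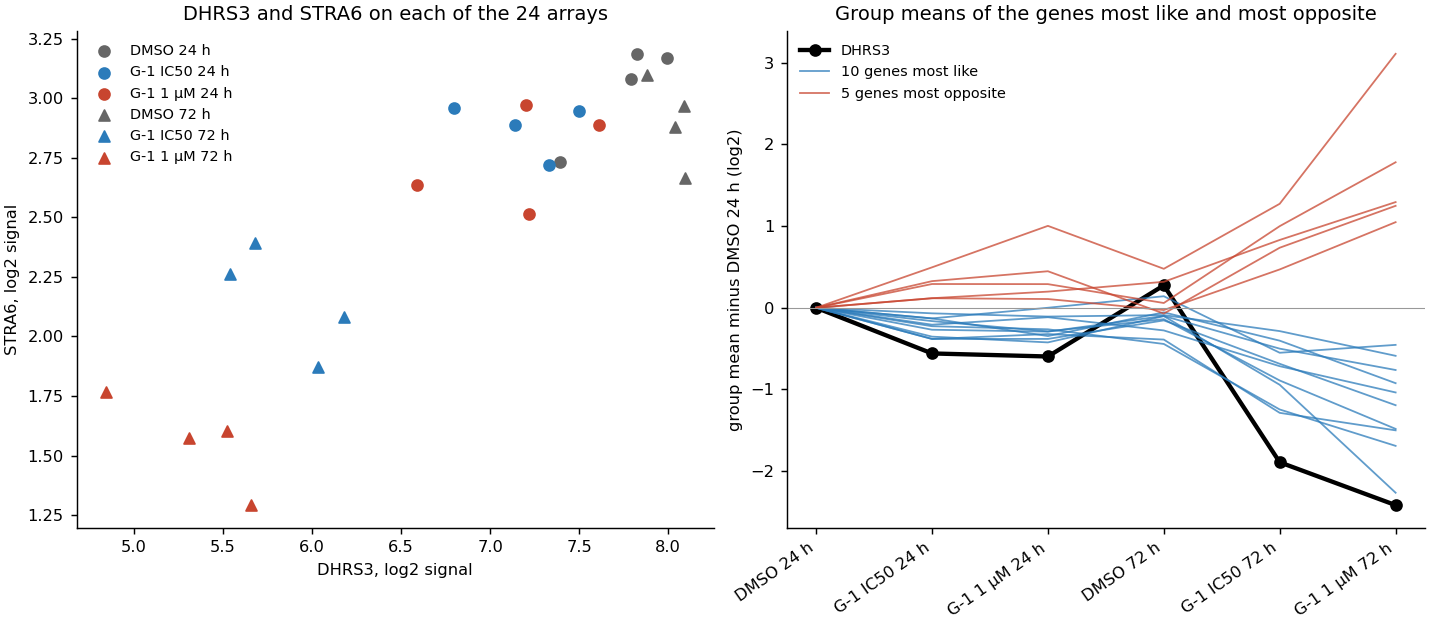
Left, log2 signal of DHRS3 and STRA6 on each of the 24 arrays (circles 24 h, triangles 72 h). Right, group means minus that of DMSO 24 h (log2) for DHRS3, the 10 genes most like it and the 5 most opposite. The arrays of G-1 at 72 h hold the lowest DHRS3 and STRA6 values. DHRS3 was selected on its 72 h values. The 10 similar genes were picked by correlation with it, so their lowest means at 72 h of G-1 follow from the choice.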

How the data were processed

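RNA of U251 cells was hybridised to 24 one-colour (Cy3) Agilent arrays, 4 in each of 6 groups of treatment and duration. The deposited scanner files give spot intensity values made by the authors with Agilent Feature Extraction (12.1.1.1 in the file headers, 10.7.3.1 in the submitters' processing notes), which subtracts background and corrects trends within an array but not between arrays. The authors also deposited a log2 value table, whose normalization the sources used here do not state. Its values differed by a median of 0.0019 and at most 0.0106 from log2 intensities shifted to each array's 75th percentile and centred on each probe's median, and its column medians ran from -0.35 to 0.56. It served as an alternative only.

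From the processed intensity, log2 values were taken per spot without outlier-flagged or control spots, averaged per probe, and reduced by the 75th percentile of the array. Probes were named through their RefSeq accession (35904 probes had one and 34981 got a symbol from the GRCh38.p14 table), and the other probes are unnamed here. A model of the 6 group means was fitted in limma (version 3.58.1, R version 4.3.3) to the 22970 tested probes of the 24 arrays, p-values were adjusted over those probes by Benjamini-Hochberg, and the fit was checked on simulated data. A gene passed at an adjusted p under 0.05, and a 2-fold change was asked where stated. Genes were named by a rule: the 9 members with every probe, list genes past the test with a 2-fold change, and the 10 genes most and 5 least like DHRS3. Other list genes, under a 2-fold change, were named after their values were seen. The members and lists were chosen with earlier results of these data known.

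The precision is limited by the 4 arrays per group. Promoters were searched in Python 3.11.15. The alternatives were another percentile, quantile normalization, normexp background correction on the median spot signal (offset 50), other filters on dim probes, other fits, blocks and tests, and leaving out each array in turn. The random slide block was added after the data were seen. Columns of other samples, of which there were 0, played no part.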

Additional observations from a re-analysis of the deposited data

Results flagged for a closer look

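DHRS3 was left out of this test because it was selected on its 72 h values. On the other member probes, 5 differences between G-1 1 µM and DMSO changed from 24 h to 72 h beyond the test of that change (limma, interaction of treatment with duration on the log2 scale, 4 arrays per group). Of all genes, 34.1% passed the same test. The change was -0.91 for RARG (adjusted p = 0.000884), -1.05 for STRA6 (adjusted p = 0.00027), 0.81 for CRABP2 (adjusted p = 0.0244), 0.94 for ALDH1A3 (adjusted p = 6.49e-05) and -0.59 for the dimmer RARA probe (adjusted p = 0.016). The brighter RARA probe gave 0.19 (adjusted p = 0.33) and did not pass. Slide 3 held the 8 G-1 1 µM arrays of both durations and no others, and the part of the slide in these differences was not tested. Over the 10 tested member probes and 6 groups, 60 groups of 4 arrays in all, 0 held an array outside Dixon's 95% limit.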

How the results depend on the processing

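No direction reversed among values past the test. DHRS3 at 1 µM and 24 h gave -0.60 with only the compared arrays and with the methods' t-test, unadjusted or adjusted, and -0.58 with slide as a random block, each past no threshold. At the IC50 and 24 h, -0.56 passed the methods' t-test before adjustment. Without 1 array in turn it ran from -0.75 to -0.41 at 1 µM.

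Members past the test at 1 µM and 24 h numbered 0 with the 50th percentile, all 24 arrays above background, the random slide block, the adjusted t-test or a 2-fold change as well, 2 with no filter and 3 with the unadjusted t-test (0 to 2 without 1 array). For the dose difference they numbered 0 at 24 h with the 50th percentile, normexp or a 2-fold change, 2 with no filter or only the compared arrays and 3 with the unadjusted t-test (0 to 1 without 1 array), and 2 at 72 h with a 2-fold change. At the IC50 and 72 h they numbered 0 with only the compared arrays, the adjusted t-test or a 2-fold change and 3 with the unadjusted t-test, which gave 2 at the IC50 and 24 h and 1 between the vehicle times. The 1 µM interaction kept 1 with a 2-fold change.

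The retinoid list gave 4 genes at 1 µM and 24 h with the 50th percentile, 21 with no filter, 6 with the random slide block or the adjusted t-test, 19 with the unadjusted one and 0 with a 2-fold change (5 to 11 without 1 array), and 7 at 72 h with a 2-fold change. At the IC50 it gave 8 at 24 h with the unadjusted t-test, and at 72 h 2 with the 50th percentile, 3 with normexp or only the compared arrays, 12 and 1 with the unadjusted and adjusted t-test and 0 with a 2-fold change (3 to 5 without 1 array). The share of all genes past the test under each alternative is not given here. The member and list counts therefore show only how the calls moved with the setting. Of the 10 genes most like DHRS3, 3 and 5 stayed with 16 arrays and with Spearman's correlation. A second DHRS3 probe for that ranking was not run, since there is 1.

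The labels do not say that a replicate number marks a shared culture or day, and not every pair of same-numbered arrays correlated over 0.1 (9, 7, 9 and 8 of 15 for the 4 numbers), so the numbers were not treated as pairs, although 15 of 24 arrays correlated best with their own number. With the replicate block 3 members passed at 1 µM and 24 h, STRA6 (-0.29, adjusted p = 0.0318) and ALDH1A3 (0.24, 0.0322) beside CRABP2, and 2 in the dose difference at 24 h, CRABP2 (0.40, 0.0459) beside ALDH1A3. In all, the main results were rated the same in 192 of 236 alternatives. A count was rated the same within a factor of 1.5, and the DHRS3 differences at 72 h have no call to keep. Dim probes such as those of CRABP2, CDX1 and ALDH8A1 lie near background, which limits their fold changes.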
